A study of Mus musculus with 12 samples.

Results

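Hearts of mice given either of 2 inhibitors of VEGF receptors, sunitinib or sorafenib, were pooled and set against hearts of mice given water. The pooled side was the 6 libraries titled with either drug name and the other side the 3 titled as control. These were 9 of the 12 libraries of the series. All mice were female and of the FVB strain, their age is not given in the sources used here, and every library came from polyA RNA of heart tissue. Drugs were given for 14 days. Sunitinib was given at 40 mg/kg/day and sorafenib at 30 mg/kg/day, with 3 libraries each, and the 3 control libraries were from mice on water. The 3 libraries of mice given erlotinib at 50 mg/kg/day were on neither side. They showed where a drug without VEGF receptors among its main targets lay. They also entered the shared model fit, and so bear on every p value from it. The series' title sets the question as how these drugs act on kinases and transcripts in the mouse heart, with cardiotoxicity in view.

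Vascular endothelial growth factor (VEGF) binds receptor tyrosine kinases on endothelial cells and keeps capillaries alive, permeable and able to sprout, and the heart muscle depends on a dense capillary bed. Sunitinib inhibits VEGF receptors, PDGF receptors, KIT and other kinases, and sorafenib inhibits VEGF and PDGF receptors together with RAF kinases. Hypertension and loss of cardiac function are known side effects of drugs of this class. Erlotinib inhibits the epidermal growth factor receptor.

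The libraries held between 14.3 and 16.5 M (1e+06) expected counts, and 13440 of 21705 genes passed the filter on low counts. Summed levels of 6 cardiomyocyte markers were 58813 to 67900 CPM (counts scaled to a library total of 1e+06) in sunitinib libraries, all above control, 54408 to 59894 CPM in sorafenib, which overlapped control, 56397 to 60014 CPM in erlotinib and 54983 to 57415 CPM in control. On the first principal component, which carried 27.9% of the variance, the 3 sunitinib libraries lay at -25.0 to -15.6, the 3 sorafenib libraries at -10.2 to -3.47 and the 3 erlotinib libraries at 19.8 to 37.4. Control spread over much of that range, with Control_1365 at -13.8 among the VEGF receptor inhibitors, Control_1367 at -3.96 and Control_1366 at 13.2. The score of atrial and conduction genes, a mean of centred log2 CPM over the list, was -1.30 to 1.33 in the VEGF receptor inhibitor libraries, -1.39 to 0.456 in erlotinib and 0.430 to 0.729 in control. Its part in the results was not tested beyond a fit with this score as a covariate. In that fit 0 genes passed, as without the score, so the count could not show its part. The smallest edgeR adjusted p was 0.141 with the score and 0.0692 without it.

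No gene passed between the pooled VEGF receptor inhibitors and control. At an edgeR quasi-likelihood adjusted p under 0.05, 0 of 13440 genes were called (0%), and the smallest adjusted p was 0.0692. An unadjusted p under 0.05 was reached by 1630 genes (12.1%), 914 of them higher (6.80%) and 716 lower (5.33%) with the drugs. DESeq2 on the same counts called 133 genes, 82 higher and 51 lower, while 0 passed in limma on the deposited signal. The count rested on 1 library: without Control_1365 edgeR called 130 genes, 67 higher and 63 lower, and without any other library of the 9 it called at most 1. The transcripts described next are the 12 of smallest p in each direction with the same sign in both drugs, and none of them passed. Their adjusted p ran from 0.0692 to 0.103. Values are given for 23 of them, of which 19 passed without Control_1365, and Cry1, Serpina3i, Klhdc8a and Chac1 did not. In DESeq2 all 23 passed. In edgeR 0 of them passed without Control_1366 or without Control_1367, where the smallest adjusted p over all genes was 0.344 and 0.186. These genes were chosen for small p on the same libraries, so passing in such refits is not independent of the choice.

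**Figure D1:**
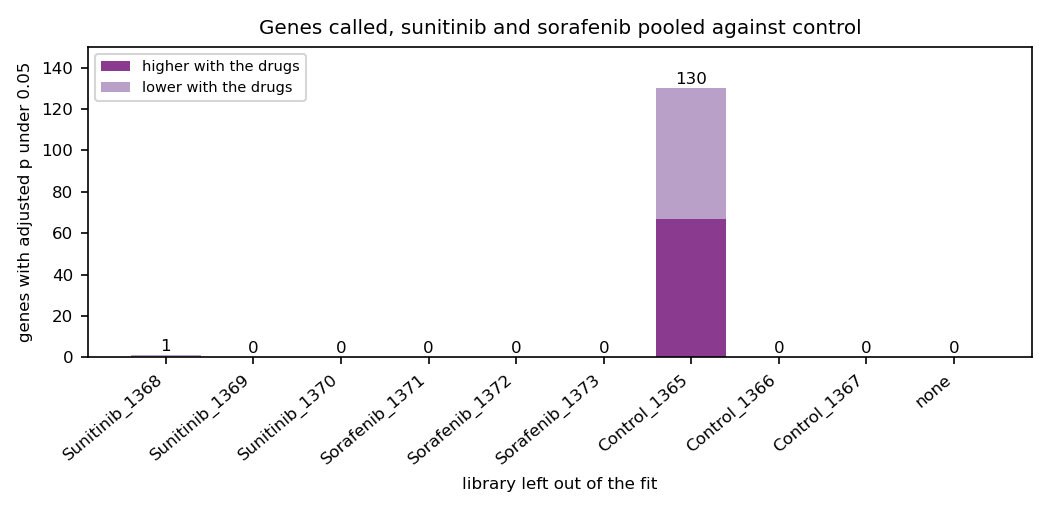
Number of genes with an edgeR adjusted p under 0.05 between the pooled VEGF receptor inhibitors and control (vertical axis, split into higher and lower) when the library on the horizontal axis is left out, and with none left out. The bar without Control_1365 stands at 130 genes, and the other bars at 0 or 1.

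The endothelin A receptor Ednra (Entrez 13617), through which endothelin constricts vessels, had the smallest p of the higher genes. It was at 149, 137 and 137 CPM in the sunitinib libraries and 169, 142 and 129 CPM in the sorafenib libraries, against 97.9, 87.5 and 93.4 CPM in control. All 6 drug libraries lay above all 3 control libraries, and the pooled log2 fold change was 0.63 ± 0.10 (SE; edgeR adjusted p = 0.0692). Each drug alone had a similar value, 0.60 ± 0.11 for sunitinib and 0.66 ± 0.11 for sorafenib. The kinase Wnk2 (Entrez 75607), of a family that regulates ion transport, was at 184, 175 and 213 CPM with sunitinib and 173, 151 and 151 CPM with sorafenib, against 127, 124 and 129.8 CPM in control. The lowest drug library was above the highest control library, and the sunitinib value of 0.59 ± 0.08 was the larger of the pair, with 0.32 ± 0.08 for sorafenib. Muscle glycogen synthase, Gys1 (Entrez 14936), was at 205, 199 and 204 CPM with sunitinib and 223, 216 and 192 CPM with sorafenib, against 175, 150.2 and 156 CPM in control. Its groups did not overlap either, at a pooled log2 fold change of 0.36 ± 0.06 (edgeR adjusted p = 0.0692).

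Among the other higher transcripts, the largest pooled value was that of Mctp1, a C2-domain membrane protein that binds calcium, at a log2 fold change of 1.07 ± 0.19. Sorafenib carried more of it, at 1.38 ± 0.21, with 0.77 ± 0.21 for sunitinib. The secreted tyrosine kinase Pkdcc had the same order, with 1.01 ± 0.14 for sorafenib and 0.44 ± 0.14 for sunitinib. For neither gene did the difference between the drugs pass. The transcription factor Sox6, known for its part in muscle fibre type, was at 27.1 to 35.4 CPM in the 6 drug libraries, against 20.1 to 23.01 CPM in control. Both drugs had the same log2 fold change for it, 0.55 ± 0.11 with sunitinib and 0.55 ± 0.11 with sorafenib. Fryl had a pooled value of 0.46 ± 0.08, and the chromatin reader Dido1 one of 0.37 ± 0.07. The lipid transporter Abca2 was at 0.32 ± 0.06. In all 12 of the higher genes the 6 drug libraries lay above the 3 control libraries, where 2.85% of all tested genes did so. The 24 were chosen for small p on these libraries, so nothing is read from that count. Per2 and Cry1, also among the higher genes, belong to the circadian clock and are taken up with it.

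On the lower side, Retnla (Entrez 57262), a protein that alternatively activated macrophages secrete, had the smallest p. It was at 5.59, 3.74 and 4.29 CPM in the sunitinib libraries and 2.20, 1.95 and 1.29 CPM in the sorafenib libraries, against 8.06, 10.5 and 8.48 CPM in control. All 6 drug libraries were lower than every control library, and the pooled log2 fold change was -1.64 ± 0.22 (edgeR adjusted p = 0.0692). With sorafenib alone it fell by 2.30 on the log2 scale (SE 0.28, edgeR adjusted p = 0.0281) and was the only gene of 13440 (0.00744%) to pass against control, while the sunitinib value was -0.98 ± 0.26 (adjusted p = 0.273). With sorafenib 88 genes passed without Control_1365, and 0 when Control_1366, Control_1367 or any sorafenib library was left out.

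Socs2 (Entrez 216233), a suppressor of cytokine signalling that STAT5 induces, was at 25.7, 24.5 and 18.8 CPM with sunitinib and 21.1, 24.9 and 26.2 CPM with sorafenib, against 31.8, 42.5 and 32.9 CPM in control. The groups did not overlap, and the log2 fold change was -0.60 ± 0.11 (edgeR adjusted p = 0.0968). Chac1 (Entrez 69065), a glutathione-degrading enzyme induced by the integrated stress response, was at 5.04, 4.00 and 2.60 CPM with sunitinib and 3.96, 4.27 and 2.51 CPM with sorafenib, against 7.37, 8.90 and 6.57 CPM in control. Its pooled value was -1.02 ± 0.19 (adjusted p = 0.0948). The adaptor Sla, which dampens receptor signalling in blood cells, had a pooled value of -1.24 ± 0.23, at 0.984 to 1.70 CPM in the 6 drug libraries against 2.45 to 4.03 CPM in control. The drug libraries lay below control for both genes.

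The phosphoinositide phosphatase Inpp4b was at -0.54 ± 0.09, the kinase Stk17b at -0.58 ± 0.11 and the Ras-association protein Rassf2 at -0.59 ± 0.10. The cell cycle inhibitor Cdkn1c was at -0.63 ± 0.12, the kelch protein Klhdc8a at -0.63 ± 0.11 and the elastic fibre protein Fbln5 at -0.59 ± 0.10. Fbln5 was the only member of the 24 whose groups overlapped, with a sunitinib library at 33.3 CPM and a control library at 32.7 CPM. The protease inhibitor Serpina3i had the most negative value, -2.02 ± 0.35, from levels of 0.272 to 0.645 CPM in drug libraries and 0.895 to 1.84 CPM in control. It belongs to a cluster of near-identical paralogs among which the counting could split reads, and its lowest library held 4 counts, so that value is uncertain.

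**Figure D2:**
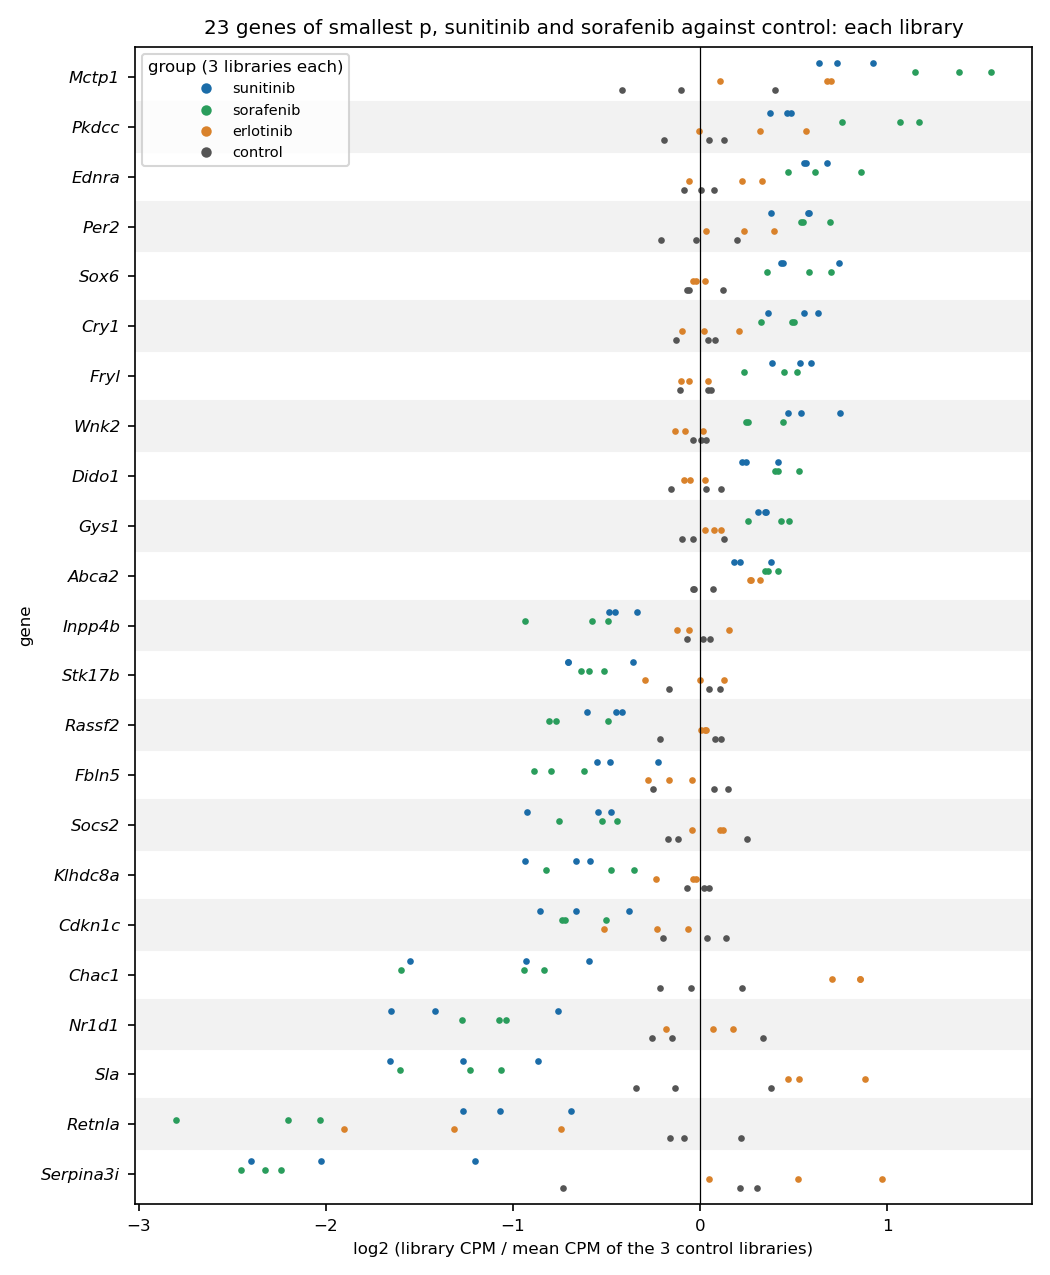
Level of 23 of the 24 genes of smallest p in each library, as the log2 ratio of its CPM to the mean of the 3 control libraries (horizontal axis), with 3 points each for sunitinib, sorafenib, erlotinib and control from top to bottom of a row. For Sox6, Dido1 and Rassf2 the erlotinib points lie with control, for Abca2 and Retnla they lie with the other drugs, and for Chac1 and Sla they lie on the far side of control.

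The same direction in both drugs was common and mostly small. Of 13440 genes, 9289 (69.1%) had the same sign in both drugs, 4659 higher (34.7%) and 4630 lower (34.4%). Both values share the control libraries, so this count was not read against chance. A stricter question is whether a gene differs from control in each drug by itself, and for that the larger of the 2 p values was taken where the signs were the same. By this test 0 genes passed (0%; smallest edgeR adjusted p = 0.975), and DESeq2 called 2. An unadjusted p under 0.05 in each drug was reached by 510 genes (3.79%), 334 higher (2.49%) and 176 lower (1.31%). The 8 smallest p by this measure belonged to Ednra, Sox6, Fryl, Nr1d1, Per2, Gys1, Stk17b and Sla. In 609 genes (4.53%) the 6 drug libraries did not overlap the 3 control libraries, 383 on the higher side and 226 on the lower.

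Few transcripts passed between the drugs, though 1325 of 13440 genes had an unadjusted edgeR p under 0.05. Between sunitinib and sorafenib 5 genes passed (0.0372%), all higher with sunitinib, and in each the means of the drugs lay on opposite sides of control. The ephrin Efnb3 was at 141, 144 and 180.3 CPM with sunitinib and 90.9, 94.1 and 91.5 CPM with sorafenib, against 107, 115 and 115 CPM in control. The log2 difference between the drugs was 0.75 ± 0.09 (edgeR adjusted p = 0.0118), and the pooled value against control was 0.09 ± 0.07. The inward rectifier potassium channel Kcnj2, which sets the resting potential, was at 106, 117 and 120.0 CPM with sunitinib and 80.1, 85.7 and 80.01 CPM with sorafenib, against 94.6, 84.3 and 86.5 CPM in control (drug difference 0.48 ± 0.07, adjusted p = 0.0478). The desmosomal cadherin Dsg2 differed by 0.52 ± 0.08 (adjusted p = 0.0478), the receptor Lrp4 by 0.85 ± 0.13 (adjusted p = 0.0494) and the PDZ protein Pdzd2 by 0.52 ± 0.07 (adjusted p = 0.0469). Without any 1 sorafenib library, or in a fit of the 9 libraries alone, 0 genes passed between the drugs, while 37 did without Sunitinib_1368, 2 without Sunitinib_1369 and 1 without Sunitinib_1370. DESeq2 called 139.

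More transcripts separated the VEGF receptor inhibitors from erlotinib than from control. Against erlotinib, 1468 genes passed (10.9%), 798 higher (5.94%) and 670 lower (4.99%) with the VEGF receptor inhibitors, and 39 genes passed between erlotinib and control (0.290%). The count between erlotinib and control was 0 without Control_1365 or Control_1367, 236 without Control_1366, 2 without Erlotinib_1376, 3 without Erlotinib_1375 and 22 without Erlotinib_1374. The count between the VEGF receptor inhibitors and erlotinib was 280 without Erlotinib_1376, 669 without Erlotinib_1375 and 946 without Sorafenib_1373. In 2174 genes (16.2%) the 6 VEGF receptor inhibitor libraries did not overlap the 3 erlotinib libraries. Of the 24 genes, 19 passed against erlotinib, 9 of the higher and 10 of the lower, and in 16 the libraries did not overlap. The 24 were chosen on the same 6 libraries, so these counts are not independent of the choice. Against control, erlotinib passed in 0 of the 24. All 3 erlotinib libraries lay within the range of control in 7 of the 24 genes, and in 10 the erlotinib mean was on the other side of control from the VEGF receptor inhibitors. These counts overlap, since Fryl, Sox6, Dido1, Rassf2, Nr1d1 and Socs2 are in both.

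Some genes fall in both sets. Sox6 had all 3 erlotinib libraries within control, at 21.6, 20.6 and 20.8 CPM (log2 difference of the VEGF receptor inhibitors from erlotinib 0.56 ± 0.09, edgeR adjusted p = 0.00533). Wnk2 was at 116, 119.9 and 128 CPM in erlotinib libraries, 2 of them below every control library, with a difference of 0.52 ± 0.07 (adjusted p = 0.00245). Chac1 lay further out on the other side of control, at 12.4, 13.8 and 13.8 CPM with erlotinib, above every control library, with a difference of -1.83 ± 0.18 (adjusted p = 0.000501). Sla was at 4.29, 5.71 and 4.48 CPM with erlotinib, also above every control library, and differed by -1.88 ± 0.22 (adjusted p = 0.000935). Against control the erlotinib values were 0.81 ± 0.21 for Chac1 and 0.64 ± 0.24 for Sla, neither of which passed. In a few genes erlotinib lay with the other drugs.

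Abca2 had 0.29 ± 0.06 with erlotinib and 0.32 ± 0.06 with the VEGF receptor inhibitors. Retnla was at 5.38, 3.61 and 2.40 CPM with erlotinib, a log2 fold change of -1.24 ± 0.26 against control. For both genes the difference between the VEGF receptor inhibitors and erlotinib did not pass, at 0.03 ± 0.06 and -0.40 ± 0.24. The values of all drugs against control share the control libraries. Mctp1 and Cdkn1c did not pass against erlotinib either, with adjusted p of 0.0651 and 0.0653.

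Transcripts of the drugs' own target kinases lay on both sides of control. Of 17 tested receptors and other targets, 0 passed (0% of all genes), 9 were above 0 and 8 below, and the median log2 fold change was 0.00, as over all genes. At an unadjusted p under 0.05, 2 were higher and 4 lower, where 6.80% and 5.33% of all genes were. The main VEGF receptor Kdr was at 201, 158 and 137 CPM with sunitinib and 194, 246 and 225 CPM with sorafenib, against 186, 69.03 and 132 CPM in control. Control ranged widely, the groups overlapped, and the value was 0.57 ± 0.28 (edgeR adjusted p = 0.455). Flt1, the decoy-like VEGF receptor, was at 0.05 ± 0.09, and Flt4, the receptor of lymphatic endothelium, at -0.09 ± 0.09. The direction of Flt1 turned with the atrial score as a covariate and without Control_1365. The PDGF receptor of fibroblasts, Pdgfra, was at -0.25 ± 0.10 and that of pericytes, Pdgfrb, at 0.14 ± 0.09. Braf, a RAF kinase, was at 0.17 ± 0.06.

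Other sunitinib targets were lower in the means. Kit, the stem cell factor receptor, was at 2.49, 1.74 and 2.32 CPM with sunitinib and 2.45, 4.15 and 3.94 CPM with sorafenib, against 3.03, 4.59 and 4.72 CPM in control (-0.57 ± 0.23, adjusted p = 0.347). The groups overlapped at these low levels. Ret, the receptor for GDNF-family ligands, was at -0.66 ± 0.19, and its sunitinib value of -0.91 ± 0.22 was beyond the sorafenib value of -0.41 ± 0.22. Csf1r, the receptor that macrophages need, was at 40.8, 35.2 and 30.6 CPM with sunitinib and 26.3, 31.9 and 26.6 CPM with sorafenib, against 41.7, 42.5 and 43.4 CPM in control. Every drug library was below every control library (-0.42 ± 0.11, adjusted p = 0.203). Of 15 ligands of the VEGF, PDGF and angiopoietin families 0 passed, with 8 above 0. Vegfa was at 0.29 ± 0.14 and Pdgfb, which endothelium uses to recruit pericytes, at 0.57 ± 0.15.

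Vasoactive genes lay on both sides of control. Of 25 tested, 0 passed against control, and the median was -0.10. At an unadjusted p under 0.05, 2 were higher and 5 lower, where 6.80% and 5.33% of all genes were. Set against erlotinib, 2 passed as higher and 2 as lower (5.94% and 4.99% of all genes). Beside the higher Ednra, the endothelin B receptor Ednrb (Entrez 13618), which on endothelium releases nitric oxide and clears endothelin, was at 16.6, 16.8 and 15.1 CPM with sunitinib and 25.2, 22.9 and 20.04 CPM with sorafenib, against 22.1, 44.8 and 26.8 CPM in control. The sunitinib libraries were below control throughout, while the sorafenib libraries overlapped it (pooled -0.70 ± 0.19, edgeR adjusted p = 0.203). In erlotinib libraries Ednrb was at 48.6, 54.97 and 66.8 CPM, above every control library, and the VEGF receptor inhibitors were lower than erlotinib by a log2 difference of -1.56 ± 0.18 (adjusted p = 0.00174). The ligand Edn1 was at 0.33 ± 0.16. The endothelial nitric oxide synthase Nos3 was at 42.6, 39.4 and 24.04 CPM with sunitinib and 46.1, 36.8 and 42.4 CPM with sorafenib, against 56.96, 67.6 and 85.04 CPM with erlotinib and 36.5, 77.4 and 61.01 CPM in control. Its pooled value against control was -0.60 ± 0.24 (adjusted p = 0.369), and it passed as lower than in erlotinib (-0.86 ± 0.24, adjusted p = 0.0488).

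Endothelial and Notch genes held members on both sides. Of 29 endothelial genes, 0 passed against control. At an unadjusted p under 0.05, 7 were higher and 2 lower (6.80% and 5.33% of all genes were). The medians over control were -0.08 with sunitinib, 0.13 with sorafenib and 0.13 with erlotinib. Set against erlotinib, 3 of the 29 passed as higher and 5 as lower (5.94% and 4.99% of all genes), with a median of -0.11. Summed levels of 8 endothelial markers were 867 to 1022 CPM in sunitinib libraries, 1038 to 1149.9 CPM in sorafenib, 948 to 1006 CPM in erlotinib and 884 to 949 CPM in control, so all sorafenib libraries lay above control and erlotinib while sunitinib overlapped both. The part of these levels in the results was not tested. Egfl7, a secreted factor of endothelium, was at 80.6 to 103 CPM in the 6 drug libraries, against 69.7, 71.8 and 82.2 CPM with erlotinib and 73.9, 68.4 and 78.6 CPM in control. All 6 drug libraries lay above control, a sunitinib library at 80.6 CPM overlapped erlotinib, and the pooled value was 0.37 ± 0.07 against control (adjusted p = 0.108) and 0.35 ± 0.07 against erlotinib (adjusted p = 0.0111). Clec14a, a sprouting-related receptor of endothelium, was at 33.7 to 49.02 CPM, against 15.04, 20.8 and 13.6 CPM with erlotinib and 33.3, 18.7 and 28.2 CPM in control. It passed as higher than in erlotinib (1.33 ± 0.20, adjusted p = 0.00482) and not against control (0.63 ± 0.19, adjusted p = 0.232). Eltd1 (now Adgrl4), an endothelial adhesion receptor, was at 0.32 ± 0.07 against control, beside 0.37 ± 0.08 for erlotinib.

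Notch signalling holds back sprouting and marks arterial endothelium, and 20 genes of it and of tip and stalk cells were tested. Of these 0 passed against control, with 5 higher and 2 lower at an unadjusted p under 0.05 (6.80% and 5.33% of all genes). Set against erlotinib, 2 of the 20 passed as higher, Hey1 and Hey2, and 3 as lower (5.94% and 4.99% of all genes). The Notch target Hey1 was at 26.2, 24.4 and 13.8 CPM with sunitinib and 29.4, 19.1 and 24.6 CPM with sorafenib, against 9.41, 9.76 and 9.69 CPM with erlotinib and 14.6, 8.76 and 13.6 CPM in control. A sunitinib library lay within control, and the pooled value was 0.89 ± 0.22 against control (adjusted p = 0.203) and 1.25 ± 0.23 against erlotinib (adjusted p = 0.0087). Hey2, a related repressor, was at 0.42 ± 0.17 against control and passed as higher than in erlotinib (0.86 ± 0.17, adjusted p = 0.00967). Nrarp, a Notch target and feedback inhibitor, was at 0.61 ± 0.17 against control.

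Most genes on the list of endoplasmic reticulum chaperones had means below control in both drugs (17 of 24). Of the 24, 11 passed as lower than in erlotinib. Chaperones fold secreted and membrane proteins, and the unfolded protein response raises many of their genes through the ER stress response element (ERSE). The list also holds genes that are not chaperones, among them the transcription factor Xbp1, the sensor Atf6 and the degradation component Herpud1. The counts cover all members. Of 24 tested, 18 were below 0, against 50.7% of all tested genes, and the median log2 fold change was -0.20 with sunitinib, -0.20 with sorafenib and 0.09 with erlotinib. Against control 0 passed, with 13 lower and 3 higher at an unadjusted p under 0.05 (5.33% and 6.80% of all genes), and in 9 the 6 drug libraries lay below all control libraries (1.68% of all genes did). Against erlotinib 0 of the 24 were higher, and 4.99% of all genes were lower. The pooled median against control was -0.27 without Control_1365 and -0.11 without Control_1367.

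The ERSE was searched as CCAAT, any 9 bases and CCACG, on both strands of RefSeq promoters of build GRCm38.p6, from 250 bases before to 50 after each gene's start. It was found in 9 of the 21 list members with a promoter (42.9%), and in 37 of all 27025 genes (0.137%). The list holds known genes of this response, so its share follows from the choice of list and is not a result about the drugs. The 250 bases before the start are shown for 3 of the 9, the best known chaperone Hspa5 and 2 members among those of smallest p, Pdia6 and Calr, each on the gene's own strand with the ERSE in capitals. Hspa5 lies on the plus strand at chr2:34771840-34772089, Pdia6 on the plus strand at chr12:17266339-17266588 and Calr on the minus strand at chr8:84846932-84847181.
Hspa5: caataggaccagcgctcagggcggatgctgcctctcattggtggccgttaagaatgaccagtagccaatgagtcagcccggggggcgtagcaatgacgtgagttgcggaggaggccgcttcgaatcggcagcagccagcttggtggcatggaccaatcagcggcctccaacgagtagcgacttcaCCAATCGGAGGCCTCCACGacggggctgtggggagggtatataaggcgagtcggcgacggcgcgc
Pdia6: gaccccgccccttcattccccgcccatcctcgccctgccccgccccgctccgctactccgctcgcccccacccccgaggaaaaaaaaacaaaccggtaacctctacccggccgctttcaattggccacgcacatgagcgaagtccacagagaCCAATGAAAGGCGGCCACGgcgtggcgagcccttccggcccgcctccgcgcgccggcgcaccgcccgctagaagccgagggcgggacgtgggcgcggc
Calr: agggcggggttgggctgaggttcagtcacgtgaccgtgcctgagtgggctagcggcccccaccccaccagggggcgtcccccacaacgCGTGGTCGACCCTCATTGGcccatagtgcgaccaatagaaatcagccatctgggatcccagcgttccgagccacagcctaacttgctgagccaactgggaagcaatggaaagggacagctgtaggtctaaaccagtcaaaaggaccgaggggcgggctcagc
The first base of the element lies at position -65 in Hspa5, -98 in Pdia6 and -162 in Calr, where it stands in the reverse orientation. The authors' reads were mapped to another build and the mice were of another strain, so the letters are those of the reference only. The 9 members with an ERSE had a median pooled log2 fold change of -0.21 against control, with 8 below 0, and the 12 with none in the window had one of -0.13, also with 8 below 0. Against erlotinib 5 passed as lower in each set.

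Hspa5 (Entrez 14828), the chaperone BiP, was at 517, 499 and 590.4 CPM with sunitinib and 510.1, 566 and 509 CPM with sorafenib, against 662, 621 and 679 CPM with erlotinib and 560.0, 646 and 642 CPM in control. The drugs overlapped control and lay below all erlotinib libraries (-0.21 ± 0.07 against control, -0.30 ± 0.07 against erlotinib, adjusted p = 0.0205). Pdia6 (Entrez 71853), a disulfide isomerase, was at 73.1, 72.5 and 72.8 CPM with sunitinib and 69.4, 73.3 and 73.5 CPM with sorafenib, against 109, 91.6 and 96.1 CPM with erlotinib and 82.7, 92.8 and 103 CPM in control. All 6 drug libraries were below the other 6, in a narrow band (-0.36 ± 0.07 against control, adjusted p = 0.108, and -0.45 ± 0.07 against erlotinib, adjusted p = 0.00449). Manf, a secreted protein of the stressed reticulum, was at 41.7, 36.9 and 44.1 CPM with sunitinib and 33.1, 37.7 and 38.6 CPM with sorafenib, against 63.3, 51.03 and 60.7 CPM with erlotinib and 45.9, 57.02 and 61.5 CPM in control. Again no drug library reached the others (-0.51 ± 0.10, adjusted p = 0.108, and -0.60 ± 0.10, adjusted p = 0.00497).

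Calreticulin, Calr, which buffers calcium in the reticulum, was at -0.26 ± 0.06 against control and -0.40 ± 0.06 against erlotinib (adjusted p = 0.00404). Hsp90b1, the HSP90 of the reticulum, was at -0.22 ± 0.06 and -0.35 ± 0.06 (adjusted p = 0.00494). The transcription factor Xbp1, which carries part of the response, was at -0.25 ± 0.07 and -0.30 ± 0.06 (adjusted p = 0.013). Other members went the opposite way.

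Ero1l (now Ero1a), the oxidase that recharges the isomerases, was at 0.28 ± 0.07 against control, the sensor Atf6 at 0.22 ± 0.06 and Herpud1, a component of degradation from the reticulum, at 0.45 ± 0.18. Erlotinib had values of 0.23 ± 0.08, 0.23 ± 0.07 and 0.29 ± 0.20 for these 3 genes, on the same side of control, and none of them passed against erlotinib.

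Clock genes were among the smallest p on both sides. The clock is a loop in which CLOCK and BMAL1 drive the Per and Cry repressors and the Nr1d (REV-ERB) receptors through E-boxes, and transcript levels swing over the day. The labels give no time of day at which hearts were taken. Of 18 clock genes, 0 passed against control, with 4 higher and 2 lower at an unadjusted p under 0.05 (6.80% and 5.33% of all genes), and against erlotinib 7 were higher and 3 lower (5.94% and 4.99% of all genes). Nr1d1 (Entrez 217166), REV-ERB alpha, was at 73.6, 46.7 and 39.7 CPM with sunitinib and 60.7, 59.2 and 51.7 CPM with sorafenib, against 131, 109.9 and 141 CPM with erlotinib and 112, 104 and 157 CPM in control. All 6 drug libraries lay below the other 6 (-1.17 ± 0.19 against control, edgeR adjusted p = 0.0692, and -1.20 ± 0.19 against erlotinib, adjusted p = 0.0056). It was the only gene to pass against control without Sunitinib_1368. Its relative Nr1d2 was at -0.28 ± 0.09 against control and -0.11 ± 0.09 against erlotinib.

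The repressor Per2 (Entrez 18627) was at 58.8, 58.99 and 51.3 CPM with sunitinib and 63.9, 57.9 and 57.4 CPM with sorafenib, against 51.8, 46.5 and 40.4 CPM with erlotinib and 45.3, 38.9 and 34.1 CPM in control. The drugs did not overlap control, the erlotinib libraries overlapped both, and the difference from erlotinib was 0.33 ± 0.10 (adjusted p = 0.0487). The repressor Cry1 (Entrez 12952) was at 20.04, 22.9 and 24.1 CPM with sunitinib and 21.96, 22.1 and 19.6 CPM with sorafenib, against 15.8, 18.00 and 14.6 CPM with erlotinib and 16.1, 16.5 and 14.3 CPM in control. Here 2 erlotinib libraries lay within control, while that at 18.00 CPM lay above it. All 6 VEGF receptor inhibitor libraries were above control and erlotinib (0.48 ± 0.09 against control, 0.43 ± 0.09 against erlotinib, adjusted p = 0.0126). An E-box, searched as CACGTG, which reads the same on both strands, was found in 5 of 15 clock gene promoters (33.3%). It was found in 8.09% of all genes. Clock genes are known to be driven through E-boxes, so their share follows from the choice of list and is not a result about the drugs. The 250 bases before the start of Cry1 are shown because it is among the 24 genes and carries 1, in capitals at position -60 on the minus strand of GRCm38.p6, chr10:85185055-85185304.
Cry1: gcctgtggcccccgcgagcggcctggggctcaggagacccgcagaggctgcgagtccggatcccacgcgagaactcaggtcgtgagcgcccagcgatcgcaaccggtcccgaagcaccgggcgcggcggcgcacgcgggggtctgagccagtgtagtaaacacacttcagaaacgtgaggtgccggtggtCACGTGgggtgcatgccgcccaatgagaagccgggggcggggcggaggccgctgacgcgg
Of the 19 genes among the 24 with a promoter entry, 2 held an E-box (10.5%), 0 an ERSE and 4 the sequence AGGTCA that REV-ERB receptors bind (21.1%, with 18.1% of all genes).

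Cry2 was at 0.34 ± 0.10 against control and passed as higher than in erlotinib (0.60 ± 0.10, adjusted p = 0.0049). Per1, which glucocorticoids induce as well, was at -0.26 ± 0.14 against control, and lower than in erlotinib (-0.68 ± 0.14, adjusted p = 0.0129). Arntl, the gene of BMAL1, ranged from 3.64 to 9.55 CPM in drug libraries and from 4.00 to 12.7 CPM in control, a spread over which no difference was detectable (-0.49 ± 0.36).

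**Figure D3:**
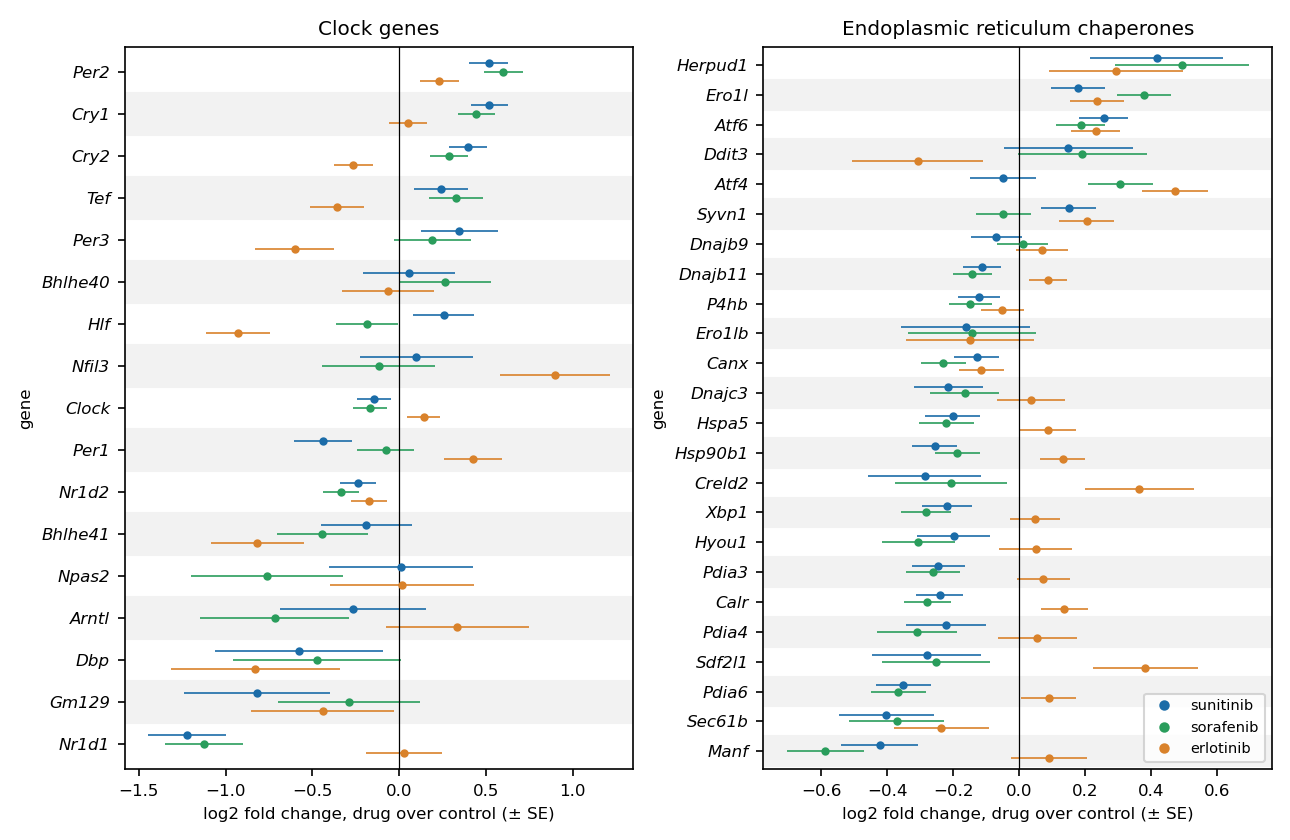
Log2 fold change over control with its SE (horizontal axes) of 17 clock genes and the 24 genes of the chaperone list. Values are for sunitinib, sorafenib and erlotinib, which share the 3 control libraries. Nr1d1 lies near -1.2 and -1.1 for sunitinib and sorafenib and near 0 for erlotinib, and Hspa5, Pdia6, Calr and Manf lie below 0 for sunitinib and sorafenib and above 0 for erlotinib.

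Matrix and macrophage lists lay below control in the medians, each with its own pattern over libraries. Of 38 interstitial matrix genes 37 were below 0, with medians of -0.42 for sunitinib, -0.26 for sorafenib and -0.10 for erlotinib, and 0 passed. The list score was -0.119, 0.142 and -0.941 in the sunitinib libraries and -0.411, 0.269 and -0.118 in the sorafenib libraries, against -0.199, 0.286 and 0.556 in control. The groups overlapped, Sunitinib_1370 was far below the rest, and the pooled median was -0.55 without Control_1365 and -0.15 without Control_1367. Fibrillin 1, Fbn1, which builds microfibrils, was at -0.67 ± 0.18 (adjusted p = 0.21), and the collagen crosslinker Loxl2 at -0.89 ± 0.27 (adjusted p = 0.24). Both passed neither against control nor against erlotinib. Summed levels of 6 fibroblast markers were 1204 to 1761 CPM in VEGF receptor inhibitor libraries, 1276 to 1460 CPM in erlotinib and 1440 to 1792 CPM in control. In bulk tissue, fewer cells of a type and less RNA per cell cannot be told apart.

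Of 29 macrophage and monocyte genes 27 were below 0, 15 of them lower at an unadjusted p under 0.05 (5.33% of all genes), and 0 passed against control. The median was -0.18 with sunitinib, -0.59 with sorafenib and -0.09 with erlotinib, and the list score was 0.274, 0.0951 and -0.323 in sunitinib libraries and -0.304, -0.140 and -0.583 in sorafenib libraries, against 0.224, 0.182 and 0.288 in control. All 3 sorafenib libraries and 2 of the 3 sunitinib libraries lay below control, and Sunitinib_1368 lay within it. Against erlotinib 5 of the 29 passed as lower (4.99% of all genes). Summed levels of 7 macrophage markers were 125 to 221 CPM in the VEGF receptor inhibitor libraries, 185 to 239 CPM in erlotinib and 212 to 233 CPM in control. Folr2, the folate receptor of resident macrophages, was at -0.57 ± 0.15 against control, with -0.53 ± 0.18 for erlotinib. Apolipoprotein E (Apoe), which macrophages and other cells secrete, was at -0.48 ± 0.11, from -0.81 ± 0.13 with sorafenib and -0.14 ± 0.13 with sunitinib. The lipid transfer protein Pltp was at -0.45 ± 0.11 and the iron carrier transferrin, Trf, at -0.51 ± 0.12, again mostly from sorafenib (-0.89 ± 0.14, with -0.14 ± 0.14 for sunitinib). Fat genes had a similar order, with a median over 12 tested of -0.01 for sunitinib, -0.66 for sorafenib and -0.11 for erlotinib, and 0 that passed. Summed levels of 5 white fat markers were 7.38 to 31.04 CPM in sunitinib libraries, 4.27 to 10.4 CPM in sorafenib, 1.80 to 35.5 CPM in erlotinib and 15.9 to 26.3 CPM in control. All 6 tested liver genes were below 0, and Control_1367 stood apart. Its liver score was 2.54, while Control_1365 was at -0.957 and Control_1366 at 0.572. The part of fat and liver RNA in the values of Apoe, Pltp and Trf was not tested.

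Some of the genes that glucocorticoids and acute stress induce were lower with the VEGF receptor inhibitors than with erlotinib. Of 23 glucocorticoid targets, 8 passed as lower than in erlotinib and 0 as higher, and 13 of 24 immediate early genes passed as lower and 1 as higher, where 4.99% of all genes passed as lower and 5.94% as higher. The median log2 fold change over control of the glucocorticoid targets was -0.17 with sunitinib, -0.07 with sorafenib and 0.61 with erlotinib. That of the immediate early genes was -0.16 with sunitinib, 0.16 with sorafenib and 0.95 with erlotinib. Of 9 neutrophil genes tested, 3 passed as lower than in erlotinib, and the median was -0.46 with sunitinib, -0.47 with sorafenib and 1.12 with erlotinib. Summed levels of 3 neutrophil markers were 3.396 to 17.7 CPM in the VEGF receptor inhibitor libraries, 12.7 to 69.3 CPM in erlotinib and 3.94 to 22.9 CPM in control, and their part in these differences was not tested. Against control 0 genes of these 3 lists passed. The transcription factor Cebpd was at 26.5, 31.5 and 36.3 CPM with sunitinib and 42.5, 36.02 and 28.3 CPM with sorafenib, against 123, 130.1 and 154 CPM with erlotinib and 29.8, 112 and 55.7 CPM in control. Control covered nearly the whole span between the drugs, with Control_1365 among the VEGF receptor inhibitors and Control_1366 near erlotinib. Nfkbia, an inhibitor of NF-kB, had the same order, at 25.2, 21.3 and 30.1 CPM with sunitinib and 28.8, 32.6 and 25.3 CPM with sorafenib, against 89.9, 105 and 114 CPM with erlotinib and 25.98, 112 and 48.7 CPM in control. The differences from erlotinib were -2.02 ± 0.33 for Cebpd (edgeR adjusted p = 0.00803), -1.92 ± 0.36 for Nfkbia (adjusted p = 0.0125) and -1.44 ± 0.27 for Cebpb (adjusted p = 0.0116), and those from control were -0.97 ± 0.34, -1.19 ± 0.36 and -0.77 ± 0.27.

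**Figure D4:**
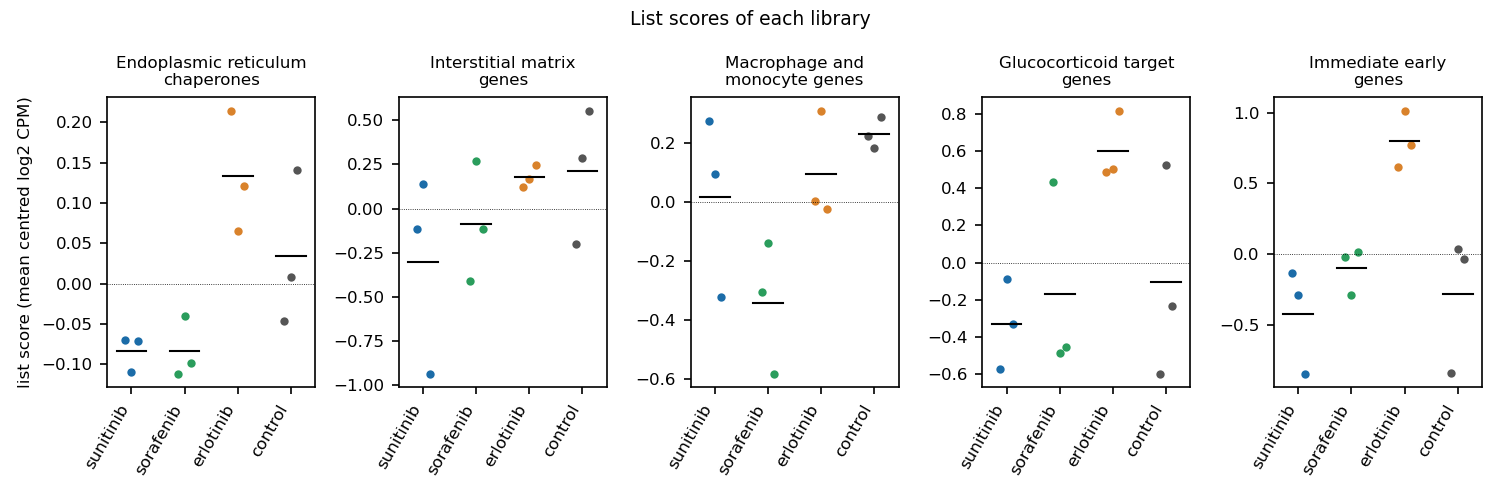
Score of 5 gene lists in each library (vertical axes, log2 CPM centred on each gene's mean over the 12 libraries, then averaged over members), with a bar at the mean of each group of 3. The chaperone and immediate early scores of all VEGF receptor inhibitor libraries lie below those of erlotinib, while control overlaps the VEGF receptor inhibitors.

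Genes of glucose use, calcium handling and contraction had list medians near control. Of 33 hypoxia and glycolysis genes 23 were above 0, with a median of 0.07 and 0 that passed against control. At an unadjusted p under 0.05, 8 were higher and 3 lower (6.80% and 5.33% of all genes), and in 4 all 6 drug libraries lay above control (2.85% of all genes). Set against erlotinib, 1 passed as higher and 4 as lower (5.94% and 4.99% of all genes). The glucose transporter Slc2a1 was at 28.4, 21.8 and 23.6 CPM with sunitinib and 26.6, 22.9 and 23.6 CPM with sorafenib, against 18.7, 18.3 and 20.4 CPM with erlotinib and 18.9, 18.5 and 16.7 CPM in control. All 6 drug libraries were above the other 6 (0.44 ± 0.10 against control, adjusted p = 0.139, and 0.36 ± 0.09 against erlotinib, adjusted p = 0.0319). The glycolytic activator Pfkfb3 was at -0.91 ± 0.28 and Hif1a, the oxygen-regulated factor, at -0.28 ± 0.09, and both passed as lower than in erlotinib (-1.60 ± 0.27 and -0.42 ± 0.09). Of 30 calcium handling and channel genes 0 passed against control, with 4 higher and 5 lower at an unadjusted p under 0.05 (6.80% and 5.33% of all genes). Set against erlotinib, 4 passed as higher and 2 as lower (5.94% and 4.99% of all genes).

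The L-type calcium channel Cacna1c was at 0.37 ± 0.08 against control and passed against erlotinib (0.28 ± 0.08, adjusted p = 0.0466). The calcium release channel Ryr2 was at 0.35 ± 0.07 with sunitinib and 0.10 ± 0.07 with sorafenib, and the IP3 receptor Itpr1 at a pooled -0.32 ± 0.11. Sarcomere genes (28 tested) had a median of 0.04, oxidative phosphorylation subunits (38) one of -0.04 and genes of fatty acid use (29) one of 0.00. In each list 0 passed against control. Set against erlotinib, 5 sarcomere genes passed as lower and 0 as higher (4.99% and 5.94% of all genes). Of the fatty acid genes 2 passed as higher and 0 as lower, and of the subunits 0 passed.

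**Figure D5:**
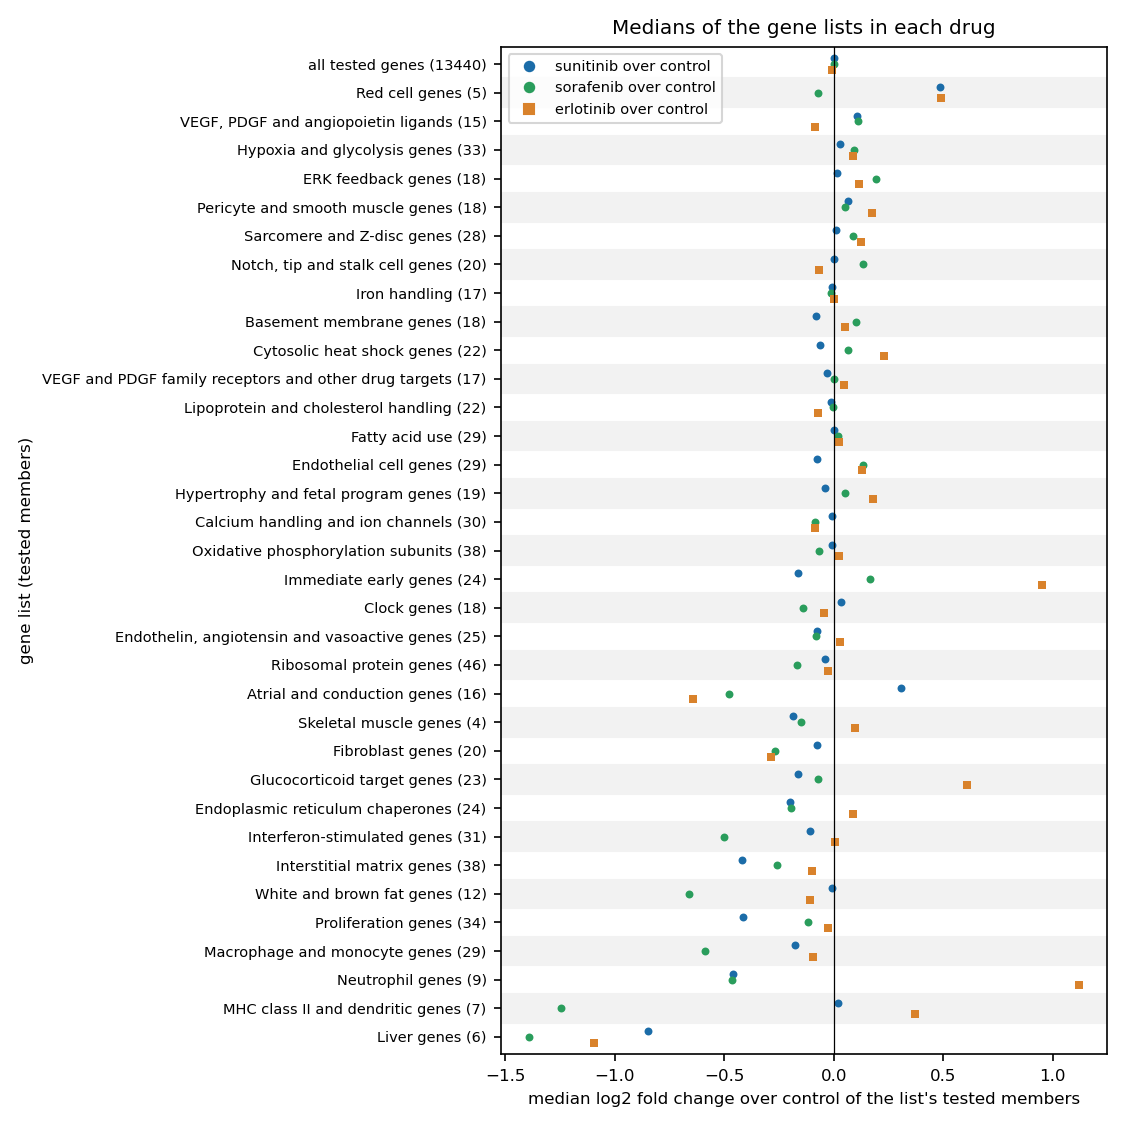
Median log2 fold change over control (horizontal axis) of the tested members of each gene list, for sunitinib, sorafenib and erlotinib, with the number of members in brackets and all 13440 genes in the top row. Chaperones lie at -0.20 for both VEGF receptor inhibitors and 0.09 for erlotinib, immediate early genes lie at 0.95 for erlotinib, and the macrophage median of sorafenib is -0.59.

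Small shifts of whole lists were seen elsewhere. All 46 ribosomal protein genes were below 0, with a median of -0.04 for sunitinib and -0.17 for sorafenib, and without Control_1366 the pooled median was 0.00 with 20 below 0. Proliferation genes had 26 of 34 below 0 and a pooled median of -0.36, which was -0.13 without Control_1367. Interferon-stimulated genes had 27 of 31 below 0 and a median of -0.30, which was -0.06 without Control_1365. In none of the 3 lists did a gene pass.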

How the data were processed

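The authors deposited, per library, RSEM expected counts (estimated counts per gene), TPM and a scaled signal. Per the submitters' processing notes, RSEM, Picard 1.88, SAMtools 1.2 and build mm9 were used. No aligner or annotation is given in the sources used here. Per the labels, libraries were stranded.

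Expected counts were rounded, filtered (filterByExpr) and scaled (TMM, giving CPM). A robust quasi-likelihood model of edgeR 4.0.16 (R 4.3.3) with a term for each of the 4 groups took in all 12 libraries, and the mean of both drugs was set against control. Tests were two-sided, with Benjamini-Hochberg adjustment and a threshold of 0.05. The biological coefficient of variation was 0.128. The deposited TPM was not tested. Alternatives were DESeq2 1.42.0, limma 3.58.1 on log2 of the authors' signal plus 1, RLE, no filter, the 9 libraries alone, a covariate and leaving out libraries. On simulated data with 200 changed genes, 62% were recovered at 1.5-fold and 81% at 2-fold in the pooled comparison. The test in each drug by itself recovered 35% and 71%, and 5.92% of genes called in the pooled comparison were false. The simulated counts held no shift shared by a whole library, so these shares need not hold for the real libraries.

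The comparison, the 34 lists and the rule for named genes were chosen with earlier results of these data known. The rule took the 12 smallest p in each direction when fewer than 5 passed, 24 fixed genes and up to 3 members of a list. Further list members (Hspa5, Hsp90b1, Xbp1, Ero1l, Atf6, Herpud1, Cry2, Nr1d2, Per1 and Arntl), and the 5 genes that differed between the drugs, were chosen after their values were seen. Labels do not say whether libraries are separate animals, so p values measure the spread between libraries. Symbols are those of the files, where 21 were numbers in place of a name. The values of some genes are not reported here.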

Additional observations from a re-analysis of the deposited data

Results flagged for a closer look

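Among 76 genes named in the text, the 6 VEGF receptor inhibitor libraries were searched for a library whose gap to the nearest other was above Dixon's critical share of the whole range, a limit that chance passes in about 1 of 20 genes. Sunitinib_1369 stood high for Serpina3i, at 0.645 CPM with the others at 0.272 to 0.364 CPM, and for Pdgfra, at 85.3 CPM with the others at 61.8 to 69.1 CPM. Sunitinib_1370 stood low for Nos3, at 24.04 CPM with the others at 36.8 to 46.1 CPM. Sorafenib_1371 was low for Pdia6, at 69.4 CPM with the others at 72.5 to 73.5 CPM. Sorafenib_1372 was low for Xbp1, at 52.1 CPM with the others at 58.2 to 61.0 CPM.

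Sunitinib and sorafenib differed, by a test of the difference itself, for Efnb3 (log2 difference 0.75 ± 0.09), Lrp4 (0.85 ± 0.13), Dsg2 (0.52 ± 0.08), Pdzd2 (0.52 ± 0.07) and Kcnj2 (0.48 ± 0.07). The edgeR adjusted p ran from 0.0118 to 0.0494. These genes were named because they passed this test. When any 1 sorafenib library was left out, or in the fit of 9 libraries, 0 genes passed it.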

How the results depend on the processing

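The pooled count against control was 0 with RLE, limma, both drugs coded as 1 group, the 20 most abundant genes left out or the atrial covariate, 1 with no filter or with the 9 libraries alone, and 133 in DESeq2. Leaving out 1 library gave 0 to 130 for the pooled count, 0 to 12 for sunitinib, 0 to 88 for sorafenib, 0 to 236 for erlotinib, 280 to 1407 for the VEGF receptor inhibitors against erlotinib and 0 to 37 between the drugs. DESeq2 gave 86 for sunitinib, 175 for sorafenib, 363 for erlotinib, 139 between the drugs and 2 for both drugs at once, and in the fit of 9 libraries sorafenib had 3 and the drugs differed in 0. Among named genes only Flt1 turned direction in the pooled comparison with control. The other comparisons were not checked gene by gene. Flt1 was at -0.00987 with the covariate and between -0.0335 and 0.167 when 1 library was left out. The cause was not tested. No paired analysis was possible because the groups share no replicate numbers.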
